A study of Mus musculus with 6 samples.

Results

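The collagen genes and the genes of collagen processing were followed in leukaemic pro-B cell cultures with mutant or wild-type Ikaros. The members are 42 collagen chain genes, taken by their symbols, and 12 named genes of collagen folding, modification, processing and cross-linking, 54 of the 22098 gene symbols in all. Where a symbol had several transcripts, the gene was represented by the transcript whose mean RPKM across the 6 libraries was highest.

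All cultures began as whole bone marrow suspensions of C57BL/6 mice, transduced at day 0 with a retrovirus that carries the BCR-ABL p185 kinase together with a YFP reporter. The groups were Ikaros_ZnF1-/- cultures, which lack the first zinc finger of the DNA-binding domain of Ikaros (ZnF1 mutant), Ikaros_ZnF4-/- cultures, which lack the fourth (ZnF4 mutant), and wt cultures (wild type). Each genotype gave 1 poly(A) RNA library from day 28 and 1 from day 21, hence n = 2 per genotype. The labels name the cells BCR-ABL+ transformed proB-ALL. They name no sort. They also leave unsaid if both days of a genotype stem from 1 culture. The p-values therefore rest on the spread between these libraries, which may be technical, and culture and genotype cannot be told apart.

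Collagens are secreted proteins whose chains wind around each other into a stiff helix and assemble into fibrils, networks or fine filaments. Newly made chains are hydroxylated on proline and lysine and held by a chaperone in the endoplasmic reticulum. They are then secreted, trimmed at their ends and cross-linked by lysyl oxidases. In bone marrow, collagens are known as products of stromal, osteogenic and vascular cells more than of B-lineage cells, and macrophages make some of them.

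Values are RPKM (read numbers corrected for transcript length and library size) as the authors deposited them, rounded to 0.1, and the read depth is unknown. Between 10401 and 11233 symbols reached 1 RPKM in a library. Ikzf1, which encodes Ikaros, stood at 91.4 and 108 RPKM in the ZnF1 mutant, 165.9 and 186 RPKM in the ZnF4 mutant, and 78.7 and 89.2 RPKM in wild type (day 28 first). A value over the whole transcript does not check the loss of a single finger. The 8 pro-B cell markers, among them Cd79a, Vpreb1, Igll1, Pax5 and Ebf1, summed to 2645.6 to 2655.8 RPKM in the ZnF1 mutant, 2617.1 to 2907.3 RPKM in the ZnF4 mutant, and 2456.9 to 2663.8 RPKM in wild type. Each difference is given in log2(RPKM + 1) units ± its standard error. The differences come from limma fitted to all 6 libraries, and a gene is called at an adjusted p below 0.05. Because of the added 1, changes of genes with low levels come out too small.

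Most tested collagen and collagen-processing transcripts were higher in the ZnF1 mutant than in wild type, across fibrillar and beaded filament chains and across the enzymes that process and cross-link them. Most of the same genes were not called in the ZnF4 mutant against wild type. The chaperone gene Serpinh1 and the chain gene Col6a6 were higher in both mutants. Of the 54 members, 27 reached 1 RPKM in at least 2 libraries and were tested. In the ZnF1 mutant against wild type 23 of these 27 were called higher and 0 lower, where 22.9% of all 11379 tested genes were called higher and 15.2% lower (38.1% in either direction). The ZnF4 mutant against wild type gave 2 members higher and 3 lower, against 10.9% and 7.32% of all tested genes (18.2% in either direction). The ZnF4 mutant against the ZnF1 mutant gave 2 higher and 23 lower, against 22.3% and 23.2% (45.5% in either direction). The split of all genes turned with the scaling: 2606 were higher and 1730 lower in the ZnF1 mutant against wild type, but 2047 and 2913 with quantile scaling and 2313 and 3111 with median centring. Between the mutants the split was 2540 higher and 2637 lower, but 3431 and 2359 with quantile scaling and 3329 and 2431 with median centring. The ZnF1 mutant had 22 members higher with quantile scaling, 23 with median centring, and 0 lower with either. These comparisons share libraries and are not independent of each other.

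The filter favours members that are high in 1 genotype. Col5a1, Col5a2, Col4a1, Col4a2, Col12a1, Col18a1, P4ha3 and Loxl1 were below 1 RPKM in every ZnF4 and wild-type library, so these 8 passed only through the ZnF1 libraries and had to differ. Of the 19 other tested members, 15 were called higher in the ZnF1 mutant against wild type, and 2 higher and 15 lower in the ZnF4 mutant against the ZnF1 mutant. Col3a1, which is in both counts of 15, reached 1 RPKM outside the ZnF1 mutant only in the day 21 wild-type library (2.0 RPKM). It therefore also needed a ZnF1 library to pass. Over all 54 members, without a filter or a test, 34 (63.0%) had both ZnF1 libraries above both wild-type libraries and 1 had both below, where 24.9% and 18% of all symbols did (36.2% and 26.1% of the symbols with any value above 0). Both ZnF4 libraries were above both wild-type libraries for 4 members (7.41%) and below them for 15 (27.8%), where 18.2% and 14.5% of all symbols were (26.4% and 21% of those with any value above 0).

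**Figure D1:**
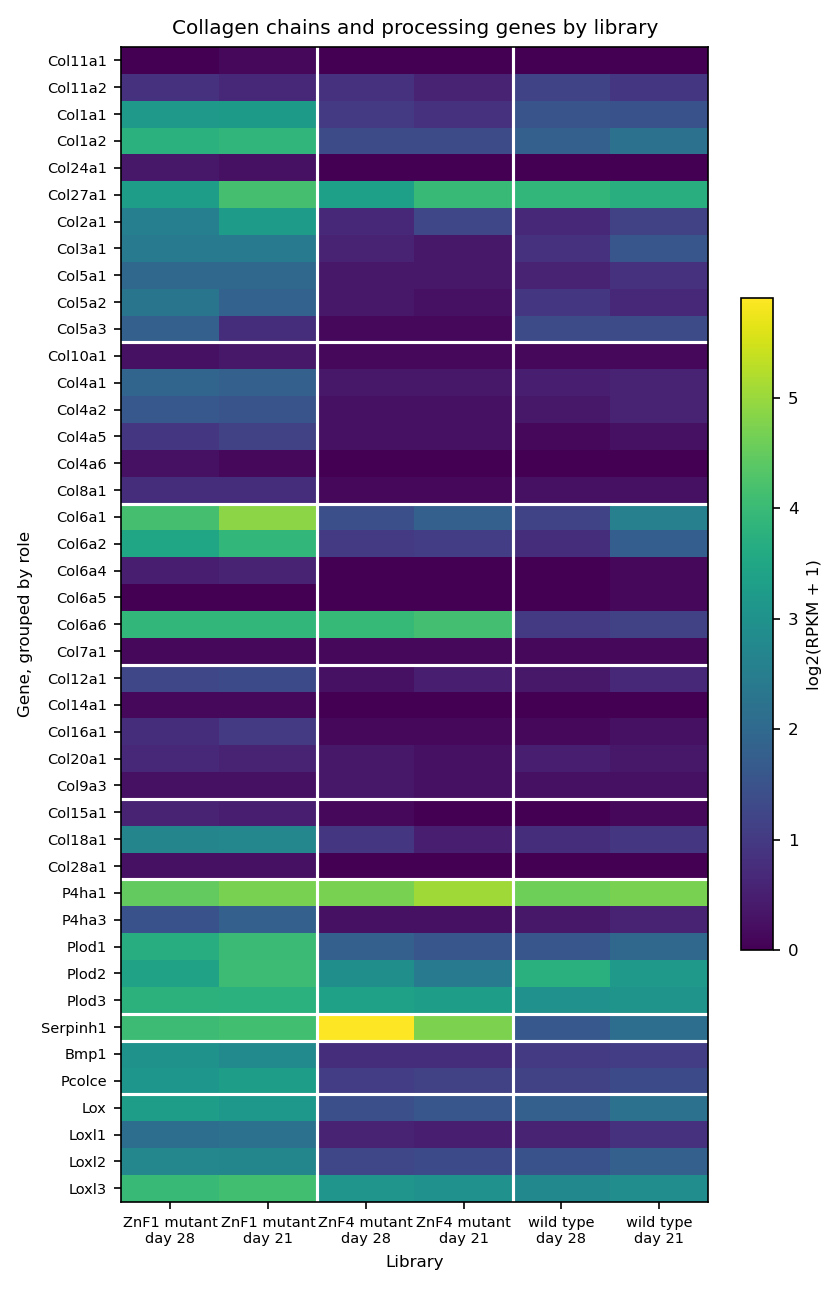
Level of each member with a value above 0 in any library, as log2(RPKM + 1) in colour, with genes in rows grouped by role and the 6 libraries in columns by genotype and day. Most rows are brightest in the ZnF1 columns, while Serpinh1 is brightest in the ZnF4 columns, at 58.8 and 25.6 RPKM.

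Among the fibrillar chains, which build the banded fibrils of connective tissue, the type I genes separated all 3 genotypes. Col1a1 (transcript NM_007742) had 8.2 and 8.3 RPKM in the ZnF1 mutant, 1.0 and 0.8 RPKM in the ZnF4 mutant, and 1.9 and 1.8 RPKM in wild type, with day 28 before day 21 here and throughout. Its partner Col1a2 had 12.6 and 13.8 RPKM in the ZnF1 mutant, 1.6 and 1.6 RPKM in the ZnF4 mutant, and 2.5 and 3.7 RPKM in wild type. The genotypes did not overlap in either gene, with the ZnF1 libraries highest and the ZnF4 libraries lowest. Col1a1 rose by 1.70 ± 0.10 in the ZnF1 mutant (adjusted p = 0.001) and Col1a2 by 1.81 ± 0.13 (adjusted p = 0.00109). Col1a1 fell by 0.59 ± 0.10 (adjusted p = 0.0164) and Col1a2 by 0.64 ± 0.13 (adjusted p = 0.0281) in the ZnF4 mutant. Both ZnF4 calls were lost without the filter and without any 1 of the ZnF4 or wild-type libraries (adjusted p up to 0.148 and 0.203), and that of Col1a2 also without either ZnF1 library, which takes part only in the estimate of the spread.

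Type III and type V chains, which join type I in mixed fibrils, had the same order of genotypes. For Col3a1 the values were 4.3 and 4.3 RPKM in the ZnF1 mutant, 0.5 and 0.3 RPKM in the ZnF4 mutant, and 0.8 and 2.0 RPKM in wild type. Col5a1 had 3.0 and 2.9 RPKM in the ZnF1 mutant, 0.3 in both ZnF4 libraries, and 0.5 and 0.8 RPKM in wild type. Col5a2 had 3.9 and 2.6 RPKM in the ZnF1 mutant, 0.3 and 0.2 RPKM in the ZnF4 mutant, and 0.9 and 0.6 RPKM in wild type. In none of the 3 genes did any genotypes overlap. Col3a1 rose by 1.19 ± 0.24 in the ZnF1 mutant (adjusted p = 0.0157). That call did not hold without the filter, nor when 1 of the ZnF1 libraries or the day 28 wild-type library was left out (adjusted p up to 0.140). Col5a1 rose by 1.27 ± 0.12 and Col5a2 by 1.27 ± 0.12. Against wild type the ZnF4 differences of these 3 genes were -0.73 ± 0.24, -0.34 ± 0.12 and -0.48 ± 0.12, and none was called (adjusted p = 0.0971, 0.12 and 0.0502). Col5a2 was called lower there in 3 alternatives: with a pseudocount of 0.1 (-1.27, adjusted p = 0.0128), with median centring (adjusted p = 0.0354) and with the mean over transcripts (adjusted p = 0.0472). Col3a1 and Col5a2 are neighbours in the mouse genome (assembly GRCm38.p6).

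Other fibrillar genes departed from that order. Col5a3, an alternative chain of type V, had 2.5 and 0.7 RPKM in the ZnF1 mutant, 0.1 in both ZnF4 libraries, and 1.6 in both wild-type libraries. It was called lower in the ZnF4 mutant (-1.24 ± 0.28, adjusted p = 0.0389) and was not called in the ZnF1 mutant, whose libraries lay on either side of wild type. The ZnF4 call was lost without the day term, without the filter and without any 1 of the ZnF4 or wild-type libraries (adjusted p up to 0.291). Without the ZnF1 library of day 28, Col5a3 was called lower in the ZnF1 mutant too, and this was the only member called lower there in any alternative. Col2a1, the main chain of cartilage fibrils, had 4.8 and 8.5 RPKM in the ZnF1 mutant, 0.6 and 1.4 RPKM in the ZnF4 mutant, and 0.6 and 1.2 RPKM in wild type. Only its ZnF1 libraries stood apart, with a rise of 1.98 ± 0.11 (adjusted p = 0.001), and the ZnF4 difference was 0.06 ± 0.11. Col27a1, a chain of thin cartilage fibrils, was the highest fibrillar gene outside the ZnF1 mutant. It had 8.8 and 16.8 RPKM in the ZnF1 mutant, 9.1 and 15.0 RPKM in the ZnF4 mutant, and 14.0 and 12.0 RPKM in wild type, so that all genotypes overlapped and no genotype comparison called it. Col11a2 was not tested. It had 0.8 and 0.6 RPKM in the ZnF1 mutant, 0.8 and 0.5 RPKM in the ZnF4 mutant, and 1.3 and 0.9 RPKM in wild type, and was the only member with both ZnF1 libraries below both wild-type libraries.

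Type IV collagen forms the network of basement membranes, and Col4a1 and Col4a2 encode its commonest chains. Col4a1 had 2.8 and 2.5 RPKM in the ZnF1 mutant, 0.3 in both ZnF4 libraries, and 0.4 and 0.5 RPKM in wild type. Col4a2 had 2.1 and 1.9 RPKM in the ZnF1 mutant, 0.2 in both ZnF4 libraries, and 0.3 and 0.5 RPKM in wild type. They rose by 1.33 ± 0.11 and 1.10 ± 0.12 in the ZnF1 mutant (adjusted p = 0.00131 and 0.0023) and were not called in the ZnF4 mutant. Both genes start close to each other on opposite strands, and in the RefSeq table (GRCm38.p6) their promoter windows, which run from 250 bases before to 50 bases after the start, share 78 bases. The other network chains were low: Col4a5 reached 1.2 RPKM, Col8a1 0.7 RPKM and Col10a1 0.3 RPKM, in each case in a ZnF1 library, Col4a6 did not pass 0.2 RPKM, and Col4a3, Col4a4 and Col8a2 were listed at 0 throughout.

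Type VI collagen, a beaded filament around cells, gave the largest chain differences. Col6a1 had 16.8 and 28.2 RPKM in the ZnF1 mutant, 1.7 and 2.5 RPKM in the ZnF4 mutant, and 1.3 and 4.9 RPKM in wild type. Col6a2 had 10.1 and 13.9 RPKM in the ZnF1 mutant, 1.0 and 1.1 RPKM in the ZnF4 mutant, and 0.7 and 2.4 RPKM in wild type. In both genes the ZnF4 libraries lay between the wild-type libraries and the ZnF1 libraries stood above all others. Col6a1 rose by 2.63 ± 0.23 (adjusted p = 0.00157) and Col6a2 by 2.42 ± 0.22 (adjusted p = 0.00168) in the ZnF1 mutant. Their ZnF4 differences from wild type were -0.26 ± 0.23 and -0.23 ± 0.22.

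Col6a6, a long type VI chain that can take the place of the α3 chain, behaved in another way from Col6a1 and Col6a2. The α3 chain gene Col6a3 was not among the gene symbols, so it has no value here and is missing from the chain sums. Its main transcript (NM_001102607) had 13.9 and 14.0 RPKM in the ZnF1 mutant, 14.5 and 16.5 RPKM in the ZnF4 mutant, and 1.0 and 1.2 RPKM in wild type. The mutant libraries stood apart from wild type and close to each other. Col6a6 rose by 2.83 ± 0.09 in the ZnF1 mutant (adjusted p = 0.000907) and by 2.97 ± 0.09 in the ZnF4 mutant (adjusted p = 0.000537), and it is the only member whose call in the ZnF4 mutant held under every alternative. The mutants differed by 0.14 ± 0.09 and this was not called (adjusted p = 0.251). Col6a6 made up much of the chain total in the ZnF4 mutant: without it the chains summed to 92.6 and 117.7 RPKM in the ZnF1 mutant, 19.9 and 26.1 RPKM in the ZnF4 mutant, and 29.0 and 36.0 RPKM in wild type, and the ZnF4 libraries were below both wild-type libraries, which they were not with it. Its neighbours in the genome (assembly GRCm38.p6) were low, with Col6a4 at most at 0.5 RPKM and Col6a5 at 0.1 RPKM.

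The paired chains of types I and VI kept similar proportions while their levels differed. The ratio of Col1a1 to Col1a2 RPKM was 0.651 and 0.601 in ZnF1 mutant libraries, 0.625 and 0.50 in ZnF4 mutant libraries, and 0.76 and 0.486 in wild type. For Col6a1 to Col6a2 it was 1.66 and 2.03 in ZnF1 mutant libraries, 1.70 and 2.27 in ZnF4 mutant libraries, and 1.86 and 2.04 in wild type. The genotypes overlapped in both ratios. The ratio of Col5a1 to Col5a2 ran from 0.556 to 1.5 and Col4a1 to Col4a2 from 1.0 to 1.5 over the 6 libraries.

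Col12a1, which coats fibrils, had 1.4 and 1.5 RPKM in the ZnF1 mutant, 0.2 and 0.4 RPKM in the ZnF4 mutant, and 0.3 and 0.6 RPKM in wild type. It rose by 0.76 ± 0.11 in the ZnF1 mutant (adjusted p = 0.00581), which missed the threshold under quantile scaling and when the day 28 wild-type library was left out (adjusted p = 0.0593). Col18a1, a basement membrane chain from which endostatin is cut, had 5.4 and 5.6 RPKM in the ZnF1 mutant, 0.9 and 0.4 RPKM in the ZnF4 mutant, and 0.7 and 0.9 RPKM in wild type. Its rise in the ZnF1 mutant was 1.85 ± 0.17 (adjusted p = 0.0016), and its ZnF4 and wild-type libraries overlapped.

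Of the 27 members that were not tested, all of them chains, 11 were listed at 0 in all 6 libraries, among them Col9a1, Col9a2, Col13a1, Col17a1 and Col23a1. The other 16 did not pass 1.3 RPKM, and Col11a2, Col4a5 and Col16a1 reached 1 RPKM in 1 library each. In 11 of these 16 both ZnF1 libraries were above both wild-type libraries, where 36.2% of all symbols with any value above 0 were. Some of the 11 rest on the rounding step, such as Col14a1 with 0.1 in both ZnF1 libraries and 0 in wild type. Col16a1 had 0.7 and 1.0 RPKM in the ZnF1 mutant, 0.1 in both ZnF4 libraries, and 0.1 and 0.2 RPKM in wild type, and Col15a1 had 0.5 and 0.4 RPKM in the ZnF1 mutant, 0.1 and 0 RPKM in the ZnF4 mutant, and 0 and 0.1 RPKM in wild type. At such levels a step of 0.1 RPKM is a large part of the value.

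The enzymes that modify collagen in the endoplasmic reticulum were divided. Plod1, a lysyl hydroxylase, had 11.8 and 15.3 RPKM in the ZnF1 mutant, 2.5 and 2.0 RPKM in the ZnF4 mutant, and 2.0 and 2.9 RPKM in wild type, and rose by 2.08 ± 0.17 in the ZnF1 mutant (adjusted p = 0.00134). P4ha3, a minor catalytic subunit of prolyl hydroxylase, had 1.8 and 2.5 RPKM in the ZnF1 mutant, 0.2 in both ZnF4 libraries, and 0.3 and 0.5 RPKM in wild type. It rose by 1.16 ± 0.12 in the ZnF1 mutant (adjusted p = 0.00208). Plod3, which also adds sugars to hydroxylysine, had 12.8 and 12.7 RPKM in the ZnF1 mutant, 9.4 and 8.9 RPKM in the ZnF4 mutant, and 6.9 and 7.3 RPKM in wild type. Its 3 genotypes did not overlap. It rose by 0.76 ± 0.08 in the ZnF1 mutant (adjusted p = 0.00236), and the ZnF4 difference of 0.33 ± 0.08 was not called (adjusted p = 0.0526), though it was in 3 alternatives (adjusted p from 0.0481 to 0.04996). Plod3 shares 529 exon bases with Znhit1 on the other strand in GENCODE M21, and Znhit1 had 26.2 to 46.8 RPKM, so reads of Plod3 are uncertain in a library whose protocol names no strand-marking step.

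P4ha1 and Plod2 did not follow the ZnF1 pattern. P4ha1, the main catalytic subunit of prolyl hydroxylase, was among the highest members, with 21.4 and 25.1 RPKM in the ZnF1 mutant, 25.4 and 32.4 RPKM in the ZnF4 mutant, and 23.2 and 25.4 RPKM in wild type. It was called against wild type in neither mutant (-0.06 ± 0.08 and 0.23 ± 0.08), and its call between the mutants (0.30 ± 0.08, adjusted p = 0.0317) was lost under 7 alternatives. Plod2, which hydroxylates the telopeptide lysines used in cross-links, had 9.6 and 15.6 RPKM in the ZnF1 mutant, 6.7 and 4.4 RPKM in the ZnF4 mutant, and 12.5 and 8.2 RPKM in wild type. Its ZnF4 libraries were below all others, but the difference from wild type was not called (-0.79 ± 0.31, adjusted p = 0.151). It was called when either ZnF1 library was left out (adjusted p = 0.0237 and 0.0245), and without the day 28 ZnF1 library Plod2 was also called higher in the ZnF1 mutant (0.84, adjusted p = 0.0298). The call against the ZnF1 mutant (-1.04 ± 0.31, adjusted p = 0.0423) was lost under 7 alternatives.

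**Figure D2:**
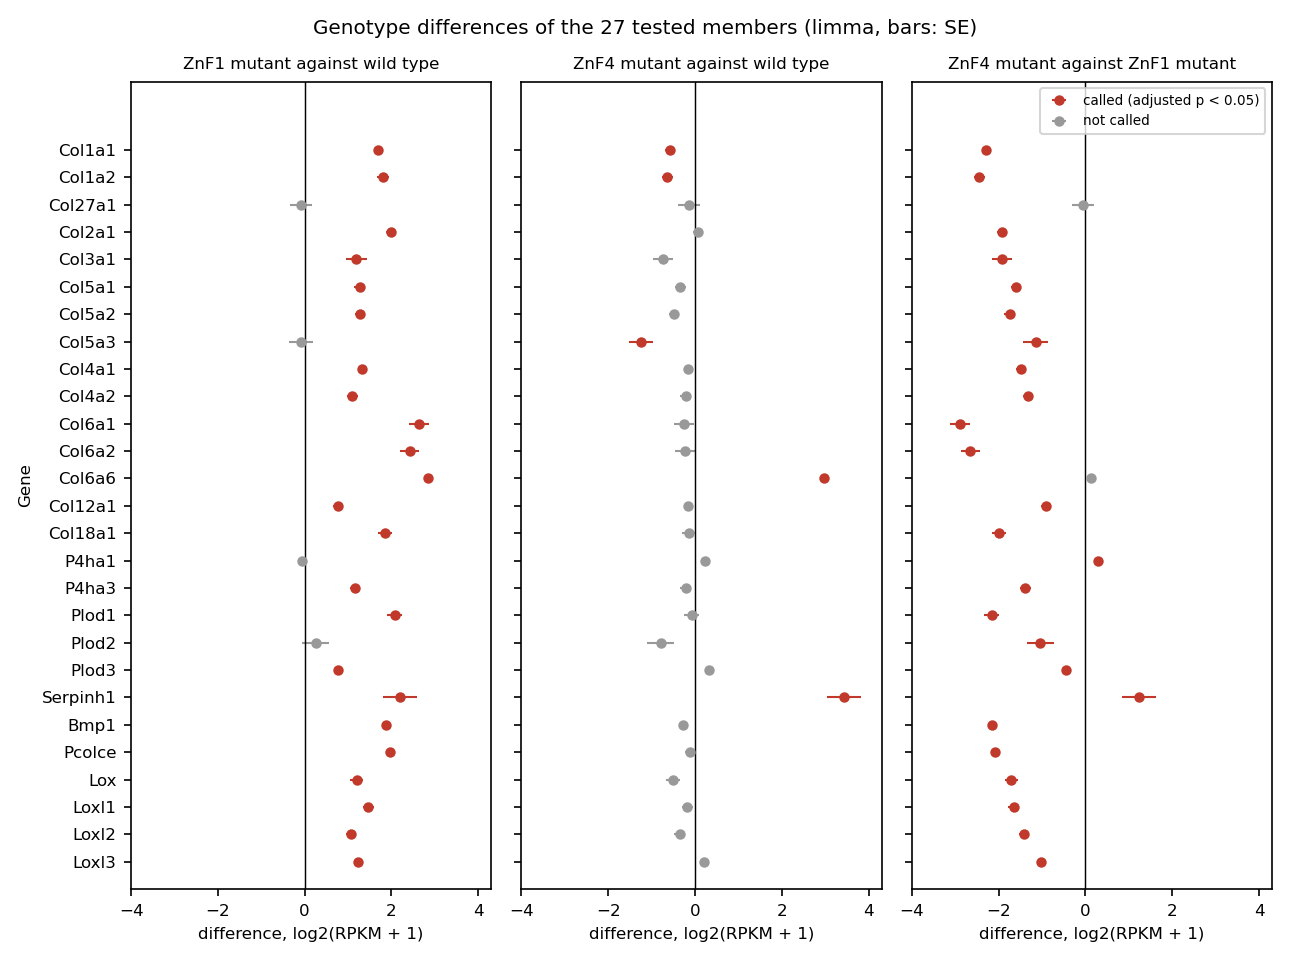
Differences on the log2(RPKM + 1) scale (points, bars are the standard error) for the 27 tested members in 3 comparisons, red where called. In the ZnF1 mutant against wild type the called points run from 0.76 to 2.83, while in the ZnF4 mutant against wild type Serpinh1 and Col6a6 are the called points above 0.

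Serpinh1 encodes HSP47, the collagen-specific chaperone of the endoplasmic reticulum. Its main transcript (NM_001111043) had 15.6 and 16.3 RPKM in the ZnF1 mutant, 58.8 and 25.6 RPKM in the ZnF4 mutant, and 2.1 and 3.4 RPKM in wild type. The genotypes did not overlap, and the ZnF4 mutant, in which type I collagen was lowest, had the highest chaperone level. Serpinh1 rose by 2.20 ± 0.39 in the ZnF1 mutant (adjusted p = 0.0107) and by 3.43 ± 0.39 in the ZnF4 mutant (adjusted p = 0.00533). Without the filter neither call held. Leaving out 1 of the ZnF1 libraries or the day 28 wild-type library ended the ZnF1 call (adjusted p up to 0.118), and leaving out that wild-type library ended the ZnF4 call (adjusted p = 0.0663). Between the mutants the difference was 1.23 ± 0.39 (adjusted p = 0.0498), a call lost without the filter, with a pseudocount of 0.1 and when any 1 library was left out, except the day 21 ZnF4 library (adjusted p up to 0.279).

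**Figure D3:**
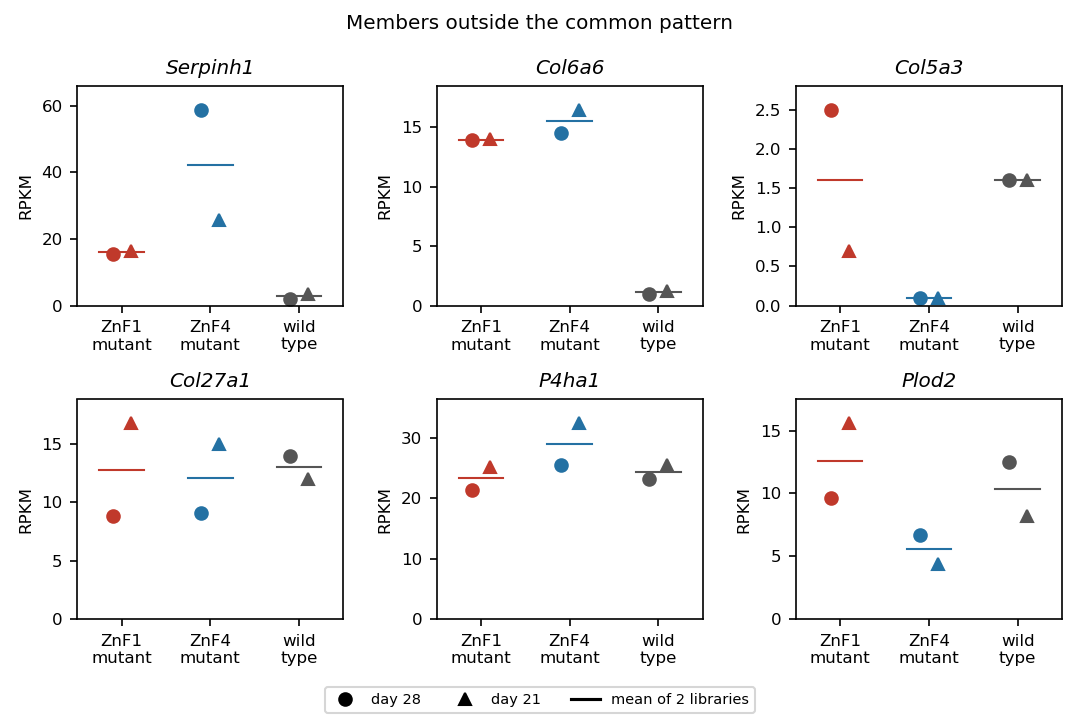
RPKM of 6 members outside the common pattern in each library (circles day 28, triangles day 21, lines the mean of 2 libraries) for the ZnF1 mutant, the ZnF4 mutant and wild type. Serpinh1 and Col6a6 lie above wild type in both mutants, Col5a3 is at 0.1 RPKM in both ZnF4 libraries, and Col27a1 overlaps between all genotypes.

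Promoter windows of RefSeq (GRCm38.p6, 300 bases) were at hand for 40 of the 54 members. Ikaros recognizes sequences around the core GGGAA, and 4 windows are printed for members that moved in both mutants (Serpinh1, Col6a6), in opposite directions (Col1a2) and as a divergent pair (Col4a2), 5′ to 3′ on the strand of the gene, with each GGGAA or its reverse complement TTCCC in capitals.
Serpinh1, chr7:99353190-99353489, minus strand: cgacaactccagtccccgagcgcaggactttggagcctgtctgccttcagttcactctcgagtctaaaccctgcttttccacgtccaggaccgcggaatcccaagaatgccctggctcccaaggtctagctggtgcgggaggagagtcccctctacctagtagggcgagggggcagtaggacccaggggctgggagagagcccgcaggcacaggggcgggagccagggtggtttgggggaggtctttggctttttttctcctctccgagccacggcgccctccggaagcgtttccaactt
Col6a6, chr9:105828036-105828335, minus strand: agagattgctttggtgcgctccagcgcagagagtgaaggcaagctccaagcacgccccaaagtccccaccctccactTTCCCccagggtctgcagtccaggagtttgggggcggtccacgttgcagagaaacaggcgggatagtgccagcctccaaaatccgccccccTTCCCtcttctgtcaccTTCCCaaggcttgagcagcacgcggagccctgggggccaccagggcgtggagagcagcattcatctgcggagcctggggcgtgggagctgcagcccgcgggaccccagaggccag
Col1a2, chr6:4505368-4505667, plus strand: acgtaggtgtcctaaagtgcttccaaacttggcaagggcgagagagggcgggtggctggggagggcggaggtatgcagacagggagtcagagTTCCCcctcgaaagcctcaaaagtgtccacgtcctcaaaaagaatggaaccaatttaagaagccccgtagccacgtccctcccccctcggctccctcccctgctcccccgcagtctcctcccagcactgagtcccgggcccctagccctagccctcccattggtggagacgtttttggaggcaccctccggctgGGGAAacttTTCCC
Col4a2, chr8:11312555-11312854, plus strand: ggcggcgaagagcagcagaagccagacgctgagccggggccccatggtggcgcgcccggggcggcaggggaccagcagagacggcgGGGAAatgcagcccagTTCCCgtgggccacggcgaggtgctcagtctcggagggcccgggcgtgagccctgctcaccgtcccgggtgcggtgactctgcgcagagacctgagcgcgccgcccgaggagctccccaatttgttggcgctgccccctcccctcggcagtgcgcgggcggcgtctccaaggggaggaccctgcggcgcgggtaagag

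The Serpinh1 window held no match of the Ikaros core, those of Col6a6 and Col1a2 held 3 each, and that of Col4a2 held 2. Of the 43 windows of members 74.4% held the core on either strand, against 62.7% of all 32851 windows. The hypoxia response core (ACGTG or GCGTG) was in 41.9% of member windows and 43.8% of all, the TATA box TATAAA in 16.3% and 13.6%, and the E-box CANNTG, whose matches can overlap the hypoxia core, in 55.8% and 72.3%. A match is a description of letters.

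Procollagen processing genes rose in the ZnF1 mutant. Bmp1, the protease that trims the C-terminal end of fibrillar procollagens, had 7.0 and 6.1 RPKM in the ZnF1 mutant, 0.7 in both ZnF4 libraries, and 1.0 and 1.1 RPKM in wild type. Pcolce, the enhancer of that protease, had 7.6 and 8.7 RPKM in the ZnF1 mutant, 1.1 and 1.2 RPKM in the ZnF4 mutant, and 1.2 and 1.5 RPKM in wild type. The ZnF1 libraries were above all others in both genes, and the ZnF4 libraries lay below wild type for Bmp1 and touched it for Pcolce. Bmp1 rose by 1.88 ± 0.11 (adjusted p = 0.001) and Pcolce by 1.96 ± 0.10 (adjusted p = 0.001) in the ZnF1 mutant, and neither was called in the ZnF4 mutant (-0.27 ± 0.11 and -0.13 ± 0.10).

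All 4 lysyl oxidase genes among the members, which start the cross-links between collagen molecules, rose in the ZnF1 mutant, by 1.07 to 1.47. Lox had 8.8 and 7.8 RPKM in the ZnF1 mutant, 1.7 and 2.0 RPKM in the ZnF4 mutant, and 2.5 and 3.7 RPKM in wild type. Loxl1 had 3.4 and 3.7 RPKM in the ZnF1 mutant, 0.5 and 0.4 RPKM in the ZnF4 mutant, and 0.5 and 0.8 RPKM in wild type. Loxl2 had 5.6 and 5.5 RPKM in the ZnF1 mutant, 1.4 and 1.5 RPKM in the ZnF4 mutant, and 1.8 and 2.5 RPKM in wild type. These 3 genes were lowest in the ZnF4 libraries, though Loxl1 touched wild type, and none was called there, though Lox was called lower with quantile scaling (adjusted p = 0.0383). Loxl3 had 14.7 and 16.3 RPKM in the ZnF1 mutant, 7.4 and 6.9 RPKM in the ZnF4 mutant, and 5.7 and 6.4 RPKM in wild type. Its ZnF4 difference of 0.21 ± 0.10 was not called. In GENCODE M21 it shares 535 exon bases with Htra2 on the other strand, which had 23.7 to 36.7 RPKM. The calls of Lox and Loxl2 in the ZnF1 mutant were lost without the filter (adjusted p = 0.0679 and 0.0516).

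Set directly against the ZnF1 mutant, the ZnF4 mutant had lower levels of 23 tested members, by -0.44 (Plod3) to -2.89 (Col6a1). The type I chains differed by -2.29 ± 0.10 (Col1a1) and -2.45 ± 0.13 (Col1a2), the protease Bmp1 by -2.15 ± 0.11 and its enhancer Pcolce by -2.09 ± 0.10. The lysyl oxidase genes ran from -1.71 ± 0.15 (Lox) to -1.02 ± 0.10 (Loxl3). P4ha1 and Serpinh1 were the members called higher, and Col6a6 and Col27a1 were not called. Of these 25 calls 19 held in every alternative that tested them, which was all of them for 16 and all but the filter on the mean for Col4a2, Col12a1 and P4ha3. Those of Col3a1, Col5a3, P4ha1, Plod2, Plod3 and Serpinh1 did not hold. The 19 include the 8 members that passed the filter only through the ZnF1 libraries and had to differ.

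No member was called between the days. Limma called 0 of 11379 genes in day 28 against day 21 (0%), with 1631 genes and 5 of the 27 members at an unadjusted p under 0.05. The largest day difference of a member was that of Col6a1 (-0.82 ± 0.19, adjusted p = 0.214), which was lower at day 28 than at day 21 in all 3 genotypes. Col2a1 was also lower at day 28 in all 3 (-0.59 ± 0.09, adjusted p = 0.173).

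Other genes of the collagen pathway were counted from lists. Of 11 tested genes of collagen modification and folding outside the members, 7 rose and 0 fell in the ZnF1 mutant (median 0.66, against -0.02 over all tested genes). Of all tested genes 22.9% were higher there and 15.2% lower. The genes that rose included Fkbp10 (1.35 ± 0.10), a collagen prolyl isomerase, and the prolyl 3-hydroxylase genes Leprel2 (1.14 ± 0.11) and Lepre1 (0.92 ± 0.10). Fkbp10, Leprel2 and Leprel4 were below 1 RPKM in every ZnF4 and wild-type library. They passed the filter only through the ZnF1 libraries and had to differ, so this count depends in part on the filter. The same list had 5 higher and 0 lower in the ZnF4 mutant (median 0.15, against 0.02), where 10.9% and 7.32% of all tested genes were. Among these 5, Glt25d2 passed the filter only through the ZnF4 libraries. P4ha2, Lepre1 and Tmem38b, which rose in both mutants, were tested because of mutant libraries alone. Their wild-type values ran from 0.6 to 0.9 RPKM. Of the genes that rose, only Crtap in the ZnF1 mutant and P4hb in the ZnF4 mutant also passed through wild-type libraries. Both counts of this list therefore depend largely on the filter. P4ha2, a catalytic subunit of prolyl hydroxylase, had 2.1 and 1.6 RPKM in the ZnF1 mutant, 3.1 and 4.4 RPKM in the ZnF4 mutant, and 0.7 and 0.9 RPKM in wild type (1.39 ± 0.17 in the ZnF4 mutant). Glt25d2, a collagen galactosyltransferase, had 0.1 in both ZnF1 libraries, 2.1 and 2.9 RPKM in the ZnF4 mutant, and 0.1 in both wild-type libraries (1.66 ± 0.13 in the ZnF4 mutant). P4hb, the shared subunit of prolyl hydroxylase, rose by 0.39 ± 0.07 in the ZnF4 mutant. Of 11 tested genes of collagen export 3 rose and 1 fell in the ZnF1 mutant (median -0.11), where 22.9% of all tested genes were higher and 15.2% lower, and 1 rose in the ZnF4 mutant (median 0.02), where 10.9% were higher. These counts are near the shares over all genes. In the ZnF1 mutant Creb3l1 (1.17 ± 0.12), a transcription factor of collagen secretion, Sec24d (0.94 ± 0.12) and Creb3l2 (0.89 ± 0.13) rose and Sec13 fell (-0.22 ± 0.06). In the ZnF4 mutant Creb3l2 rose (0.88 ± 0.13). Creb3l1 passed the filter only through the ZnF1 libraries.

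Genes outside the cell with a part in collagen turnover were mostly higher in the ZnF1 mutant. Of 10 genes of further processing 2 were tested, and both rose there, where 22.9% of all tested genes were higher. These were Adamts2 (1.51 ± 0.10), which trims the N-terminal end of procollagen, and the transglutaminase Tgm2 (2.68 ± 0.29). Adamts2, and below Mrc2 and Ddr2, were under 1 RPKM in every ZnF4 and wild-type library. They passed the filter only through the ZnF1 libraries and had to differ. Of 9 tested genes of collagen breakdown and its inhibition 8 rose in the ZnF1 mutant (median 1.67), where 22.9% of all tested genes were higher. They included the endocytic collagen receptor Mrc2 (1.56 ± 0.12), the gelatinase Mmp2 (1.89 ± 0.15) and the inhibitor Timp2 (2.30 ± 0.20). Timp1 (-1.57 ± 0.17) and Timp2 (-0.91 ± 0.20) fell in the ZnF4 mutant, and Ctsk, which encodes the collagenolytic protease cathepsin K, rose (2.21 ± 0.37). Of all tested genes 7.32% were lower there and 10.9% higher. Of 9 collagen receptor genes 3 were tested. All 3 rose in the ZnF1 mutant, Ddr2 (1.47 ± 0.11), Itgb1 (0.88 ± 0.07) and Lair1 (1.52 ± 0.14), where 22.9% of all tested genes were higher. Itgb1 also rose in the ZnF4 mutant (0.84 ± 0.07), where 10.9% were higher. The integrin genes Itga1, Itga2, Itga10 and Itga11 of the same list were not tested and did not pass 0.8 RPKM.

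Among known targets of the hypoxia response, to which P4ha1, P4ha2, Plod2 and Lox also belong, 1 of 15 rose and 3 fell in the ZnF1 mutant (median -0.17), where 22.9% of all tested genes were higher and 15.2% lower. The ZnF4 mutant had 7 higher and 1 lower (median 0.44), against 10.9% and 7.32% of all tested genes, with Ndrg1 (3.70 ± 0.15) and the glucose transporter gene Slc2a1 (0.75 ± 0.07) higher. There the members P4ha1, Plod2 and Lox had differences of 0.23 ± 0.08, -0.79 ± 0.31 and -0.51 ± 0.15, and none was called. P4ha2, which is not a member and passed the filter only through the mutant libraries, was called higher (1.39 ± 0.17, adjusted p = 0.00674). It was also called higher in the ZnF1 mutant (0.66 ± 0.17, adjusted p = 0.0342).

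Markers of other cells moved with the collagen genes. Of 9 tested fibroblast and stromal markers 8 rose in the ZnF1 mutant, where 22.9% of all tested genes were higher. Among them were Cxcl12 (2.36 ± 0.10), Bgn (2.51 ± 0.12), Tagln (1.33 ± 0.09) and Pdgfra (1.64 ± 0.11). Pdgfra, Pdgfrb and Prrx1 were below 1 RPKM in every ZnF4 and wild-type library. They passed the filter only through the ZnF1 libraries and had to differ. Dcn reached 1 RPKM outside the ZnF1 mutant only in the day 21 wild-type library, so it also needed a ZnF1 library to pass. None of the 9 rose in the ZnF4 mutant, where Bgn (-0.70 ± 0.12) and Tagln (-0.40 ± 0.09) fell. Of all tested genes 10.9% were higher there and 7.32% lower. Thy1 did not move with the rest, with 0.7 and 0.2 RPKM in the ZnF1 mutant, 3.8 and 9.4 RPKM in the ZnF4 mutant, and 0.3 and 3.0 RPKM in wild type. The 13 markers of the list summed to 139.1 and 145.6 RPKM in the ZnF1 mutant, 20.6 and 30.8 RPKM in the ZnF4 mutant, and 25 and 38 RPKM in wild type. Lum was listed at 0 in all 6 libraries, Twist2 did not pass 0.1 RPKM, and Dcn had 5.5 and 4.2 RPKM in the ZnF1 mutant, 0.1 in both ZnF4 libraries, and 0.3 and 1.6 RPKM in wild type. All 10 macrophage markers rose in the ZnF1 mutant and 6 fell in the ZnF4 mutant, against 22.9% and 7.32% of all tested genes. None of the 10 was at 0. They summed to 1838.5 and 1946.1 RPKM in the ZnF1 mutant, 265.1 and 202.4 RPKM in the ZnF4 mutant, and 314.8 and 494.0 RPKM in wild type. The part of these cells in the collagen differences was not tested. In these bulk samples more cells of a type and more RNA per cell cannot be told apart.

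Markers of vessels and platelets gave less. Of 7 endothelial markers 2 were tested, Kdr, which rose in the ZnF1 mutant (1.21 ± 0.18), and Pecam1, which fell in the ZnF4 mutant (-0.95 ± 0.08), while Tek, Esam and Tie1 did not pass 0.1 RPKM. They summed to 28.7 and 30.0 RPKM in the ZnF1 mutant, 14.3 and 15.5 RPKM in the ZnF4 mutant, and 26.5 and 25.6 RPKM in wild type. Of 5 platelet markers only Pf4 was tested. It rose in the ZnF1 mutant (1.40 ± 0.11) and fell in the ZnF4 mutant (-0.68 ± 0.11), beside the same shares of 22.9% and 7.32%. Of the rest of that list, Itga2b and Gp9 did not pass 0.2 RPKM, and Gp1bb and Ppbp did not pass 0.8 RPKM. Of the 8 pro-B cell markers 0 were called in the ZnF1 mutant, where 38.1% of all tested genes were called. Of the same 8, Igll1 was higher in the ZnF4 mutant (0.54 ± 0.11), where 10.9% of all tested genes were.

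**Figure D4:**
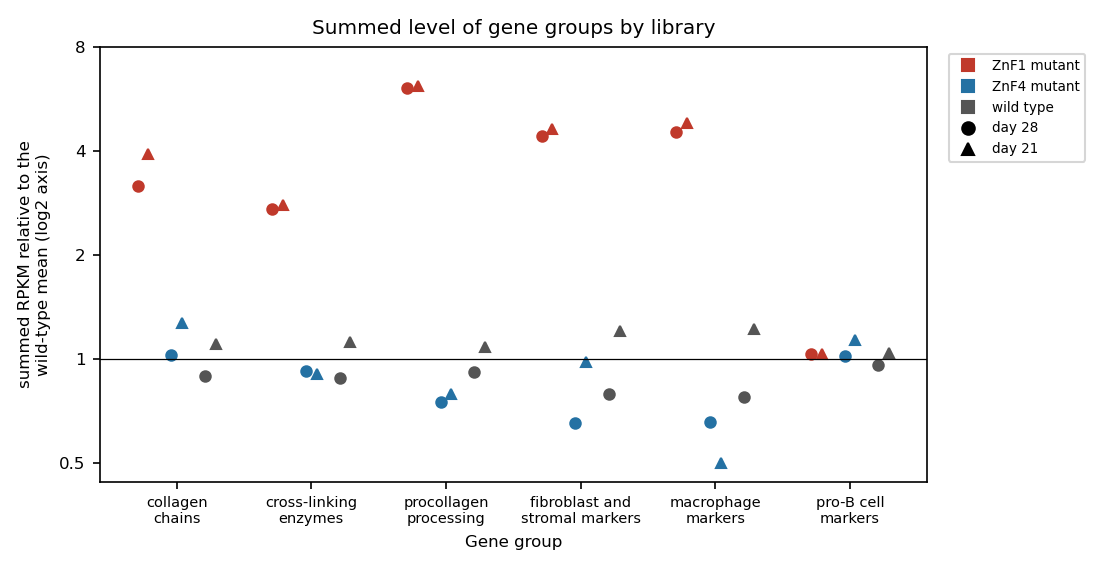
Summed RPKM of gene groups in each library, divided by the mean of the wild-type libraries, on a log2 axis (circles day 28, triangles day 21). The collagen chains summed to 106.5 and 131.7 RPKM in the ZnF1 mutant, 34.4 and 42.6 RPKM in the ZnF4 mutant, and 30.0 and 37.2 RPKM in wild type, with Col6a6 included, and the stromal and macrophage markers show a like step in the ZnF1 mutant.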

How the data were processed

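The authors deposited 1 table of RPKM values for 26531 RefSeq transcripts, with transcript lengths. The build mm9 and the tools bedtools and TopHat are named per the submitters' processing notes, without versions or roles. The sources used here do not give the annotation release. Of the lines in the table, 1 had no gene name and was left out. Of low values of transcripts under 160 bases at most 69.1% lay on steps of whole reads (within 0.05 RPKM), so no depth was recovered.

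Genes with at least 1 RPKM in at least 2 libraries (11379) were tested with limma (3.58.1, R 4.3.3) on log2(RPKM + 1), with genotype and day as terms, a mean-variance trend and Benjamini-Hochberg adjustment over all tested genes; 2 residual degrees of freedom were joined by a prior of 3.22. Day, the replicate number in the labels, was kept as a term because it is a factor of the design; day changes correlated between genotypes across genes at 0.226 to 0.433. The steps were tested on simulated data. The alternatives were no day term, a pseudocount of 0.1, no filter, a mean of at least 1 RPKM, quantile scaling, median centring, the mean over transcripts, and leaving out each library.

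Members and lists (12, with 123 of 124 entries matched) were chosen with earlier results of these data known. Every library value is given for members called between genotypes and for Col1a1, Col1a2, Col3a1, Serpinh1, P4ha1 and Plod2. Of each list, up to 4 tested genes with the smallest p are named, and some list genes are not reported here; the library values of P4ha2, Glt25d2, Dcn, Thy1, Tgfb1, of low chains and of second transcripts were chosen after they were seen. Protein sequences were not used here. Coordinates are those of the RefSeq promoter table (GRCm38.p6), not of the build of the values.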

Additional observations from a re-analysis of the deposited data

Results flagged for a closer look

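In 2 members the change between the days went opposite ways in 2 genotypes, by at least 0.5 on the log2(RPKM + 1) scale in each. With 1 library per genotype and day the difference was not tested. Plod2 had 9.6 RPKM at day 28 and 15.6 RPKM at day 21 in the ZnF1 mutant, 6.7 and 4.4 RPKM in the ZnF4 mutant, and 12.5 and 8.2 RPKM in wild type. Its day difference in the ZnF1 mutant minus that in wild type was -1.20, and that in the ZnF4 mutant minus that in the ZnF1 mutant was 1.16. Serpinh1 had 58.8 RPKM at day 28 and 25.6 RPKM at day 21 in the ZnF4 mutant, and 2.1 and 3.4 RPKM in wild type, a difference between these day changes of 1.67.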

How the results depend on the processing

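No called difference of a member changed sign under any alternative. Of the calls, 18 of 23 in the ZnF1 mutant against wild type, 1 of 5 in the ZnF4 mutant against wild type (Col6a6) and 19 of 25 between the mutants (ZnF4 against ZnF1) held under all alternatives that tested them. Col4a2 and P4ha3, and between the mutants also Col12a1, were not tested with the filter on the mean. The held calls include members that passed the filter only through the ZnF1 libraries and had to differ. In both comparisons with the ZnF1 mutant these are Col5a1, Col5a2, Col4a1, Col4a2, Col18a1, P4ha3 and Loxl1. Between the mutants Col12a1 is a further one. Among the 27 tested members, alternatives also added calls, of Col5a2, Plod3, Lox and Plod2 in the ZnF4 mutant and of Col5a3 and Plod2 in the ZnF1 mutant. Without the filter Col4a5, Col6a4, Col8a1, Col14a1, Col16a1, Col20a1, Col24a1 and Col28a1 were also called, higher in the ZnF1 mutant than in either other genotype. The member then called lower in the ZnF4 mutant was Col8a1. It had 0.1 RPKM in both ZnF4 libraries and 0.2 RPKM in both wild-type libraries. Without the replicate block (the day term), 1 member was called higher between the mutants, and the Col5a3 call in the ZnF4 mutant was lost; no other call of a member against wild type was lost under it, and P4ha1 was the call lost between the mutants. A pseudocount of 0.1 also left 1 member higher between the mutants. Without the filter 2711 genes were called in the ZnF1 mutant, 484 in the ZnF4 mutant and 9 between the days, with 1 member higher and 1 lower in the ZnF4 mutant and 0 higher between the mutants; 22098 genes were then tested.

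With 1 library left out, the lone library of a genotype is assumed to vary like the others. Genes called ranged from 1398 to 4475 in the ZnF1 mutant, from 346 to 1230 in the ZnF4 mutant and from 2526 to 3896 between the mutants. The lowest counts came without the day 28 wild-type library in both comparisons with wild type, and without the day 21 ZnF1 library between the mutants. Members called higher ranged from 20 to 23 and lower from 0 to 1 in the ZnF1 mutant, higher from 1 to 2 and lower from 0 to 3 in the ZnF4 mutant, and higher from 0 to 1 and lower from 20 to 22 between the mutants. The cause of these losses was not tested beyond the smaller number of libraries.

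Quantile scaling and median centring moved the median of all genes in the ZnF1 mutant against wild type to -0.12 and -0.11, against -0.02 in the values reported. Depth is unknown, and values near 0.1 RPKM are set by rounding.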

Other observations

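Genes of TGF-beta signalling, a known inducer of collagen genes, were partly shifted in the same genotypes. Of 11 tested genes 6 rose and 0 fell in the ZnF1 mutant (median 0.64, against -0.02 over all tested genes). There 22.9% of all tested genes were higher and 15.2% lower. In the ZnF4 mutant 1 rose and 3 fell (median -0.22, against 0.02), where 10.9% of all tested genes were higher and 7.32% lower. The target genes Ctgf (1.81 ± 0.14) and Tgfbi (1.73 ± 0.22) and the latent TGF-beta binding protein gene Ltbp1 (1.45 ± 0.14) were among those that rose in the ZnF1 mutant. Ltbp1 passed the filter only through the ZnF1 libraries. Ctgf (-0.65 ± 0.14) and the receptor gene Tgfbr1 (-0.33 ± 0.08) were among those that fell in the ZnF4 mutant, where Smad3 (0.54 ± 0.12) rose. The ligand gene Tgfb1 had 231.1 and 196.9 RPKM in the ZnF1 mutant, 302.3 and 240.7 RPKM in the ZnF4 mutant, and 218.3 and 202.8 RPKM in wild type, and was not called against wild type in either mutant.

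Several members had a second, lower transcript in the table. That of Col6a6 had 2.2 and 1.7 RPKM in the ZnF1 mutant, 2.0 and 2.3 RPKM in the ZnF4 mutant, and 0.2 in both wild-type libraries, the same order as the main transcript. The second transcript of Serpinh1 had 0.1 and 0 RPKM in the ZnF1 mutant, 0.7 and 0.3 RPKM in the ZnF4 mutant, and was listed at 0 in wild type.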
